A study of Mus musculus with 14 samples.

Results

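The proteasome subunit genes are the protein-coding genes whose symbols are Psma, Psmb, Psmc, Psmd, Psme or Psmg followed by a number. The rule found 47 of the 21887 protein-coding genes of the GRCm38 table, and pseudogenes were left out. Their peaks were read from ChIP-seq of GATA2 and RUNX1, transcription factors of blood cells, and of RNA polymerase II carrying phosphate on serine 2 (S2P), the mark of polymerase in productive elongation. The cells were G1ER, a mouse erythroblast line without its own GATA1 in which a fusion form of GATA1 can be switched on by estradiol, in a wild-type (WT) and a Chd7 knockout (KO) genotype. Chd7 encodes a chromatin remodelling ATPase, and the study's title concerns its interaction with RUNX1. Both genotypes share the GATA1 background of the line and were kept in erythropoietin and stem cell factor. The labels do not say whether the KO cells were 1 clone or whether the cells used for ChIP had received estradiol.

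There were 6 lists. The 4 factor lists rest on 1 library each, and each S2P list is named in the labels for 2 replicates. The lists held 68199 GATA2 peaks in WT and 80611 in KO, 28952 and 35281 RUNX1 peaks, and 163620 and 165206 S2P peaks. With 1 list per target and genotype no difference between WT and KO could be tested. The intervals of fragments and of shares cover counting error only. Those of median log2 differences cover the spread among pairs of peaks, and no interval covers variation between replicates. Chd7 itself had no S2P peak in either list, so these lists could not check the knockout label. Of 10 erythroid marker genes 9 had an S2P peak in both genotypes, with the exception of Slc4a1. None of 9 B cell, T cell and fibroblast markers had one, while 2 of 4 macrophage markers (Csf1r and Cd68, the higher at 87% of the gene in WT and 100% in KO), 1 of 3 mast cell markers (Cpa3, 54.5% and 39.8%) and 1 of 3 megakaryocyte markers (Itga2b, 30.6% and 33.4%) had one. Their part in the results was not tested.

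The proteasome degrades proteins tagged with ubiquitin. Its 20S core is a stack of rings in which alpha subunits (Psma) form the gates and beta subunits (Psmb) hold the protease sites. The 19S cap, built of ATPases (Psmc) and non-ATPase subunits (Psmd), recognises, unfolds and feeds substrates, and activators (Psme) can take its place. Assembly chaperones (Psmg and some Psmd products) build the particle. In the red cell lineage the proteasome clears excess globin chains and takes part in the removal of other proteins during maturation.

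Promoter sequences, 300 bases long with 250 before the start and 50 after it, were taken from RefSeq on GRCm38 and were present for 39 of the 47 genes, with 42 starts. Psma8, Psmb1, Psmb2, Psmb7, Psmc3, Psmd3, Psmd7 and Psmg2 had no entry. The bases before 6 starts are printed 5′ to 3′ on the strand of the gene, because they span the 4 strongest WT RUNX1 summits in these promoters (Psmd4, Psma7, Psma2 and the second start of Psma6), promoters with a RUNX match near the summit, and a promoter that has a match and no RUNX1 peak. Capitals mark matches to the RUNX letters TGTGGT or TGCGGT, to the ETS letters CCGGAAG, to the nuclear respiratory factor letters (GCGCA and GCGC with any base between them) or to the core of the antioxidant response element, TGACNNNGC, each searched on both strands.
Psmd4, chr3:95042615-95042864, minus strand: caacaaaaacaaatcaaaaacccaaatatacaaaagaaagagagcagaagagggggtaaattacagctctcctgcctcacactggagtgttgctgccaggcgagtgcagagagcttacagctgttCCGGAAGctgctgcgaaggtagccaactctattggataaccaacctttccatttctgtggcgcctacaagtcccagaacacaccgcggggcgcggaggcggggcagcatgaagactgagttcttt
Psma7, chr2:180042465-180042714, minus strand: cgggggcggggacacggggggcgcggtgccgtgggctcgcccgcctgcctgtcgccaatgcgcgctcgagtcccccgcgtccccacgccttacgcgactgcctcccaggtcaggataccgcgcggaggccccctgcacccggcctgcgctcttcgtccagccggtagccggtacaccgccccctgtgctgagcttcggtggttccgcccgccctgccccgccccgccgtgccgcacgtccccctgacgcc
Psma2, chr13:14613042-14613241, plus strand: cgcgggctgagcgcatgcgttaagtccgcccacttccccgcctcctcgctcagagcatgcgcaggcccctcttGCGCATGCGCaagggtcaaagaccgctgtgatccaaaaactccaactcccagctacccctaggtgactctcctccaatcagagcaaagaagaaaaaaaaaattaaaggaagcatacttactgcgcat
Psma6 second start, chr12:55398575-55398824, plus strand: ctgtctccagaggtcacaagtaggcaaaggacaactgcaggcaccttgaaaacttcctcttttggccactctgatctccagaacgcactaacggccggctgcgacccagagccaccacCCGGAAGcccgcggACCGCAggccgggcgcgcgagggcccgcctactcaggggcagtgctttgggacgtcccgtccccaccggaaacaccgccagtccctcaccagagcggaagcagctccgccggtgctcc
Psmd13, chr7:140882144-140882393, plus strand: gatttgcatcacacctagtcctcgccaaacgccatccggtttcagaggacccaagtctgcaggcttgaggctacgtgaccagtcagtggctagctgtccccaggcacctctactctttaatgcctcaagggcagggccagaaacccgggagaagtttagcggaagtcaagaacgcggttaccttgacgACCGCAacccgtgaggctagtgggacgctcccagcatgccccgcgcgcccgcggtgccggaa
Psmb5, chr14:54617996-54618245, minus strand: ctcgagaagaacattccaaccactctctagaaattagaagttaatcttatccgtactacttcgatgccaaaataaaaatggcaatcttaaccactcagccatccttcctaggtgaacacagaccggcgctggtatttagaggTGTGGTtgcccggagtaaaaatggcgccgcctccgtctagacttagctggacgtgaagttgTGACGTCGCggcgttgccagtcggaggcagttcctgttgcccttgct

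In Psmd4 the capitals are an ETS match that begins at −125, counted from the start at 0. The RUNX1 summits there lay at −15 in WT and 1 in KO. Psma7 has none of these letters in the printed bases, and its RUNX1 summits were at −157 and −161. Psma2 has a palindromic nuclear respiratory factor match at −127, and its RUNX1 summits were at −123 and −130. The second start of Psma6 has an ETS match at −132 and a RUNX match, read on the minus strand, at −118, with RUNX1 summits at −94 and −60. Further ETS matches there, at −2 and 17, reach or lie past the printed bases and carry no capitals. Psmd13 has a RUNX match at −62 and summits at −53 and 10. It also has an ETS match at −6 that runs past the printed bases and carries no capitals. Psmb5 has a RUNX match at −108 and an antioxidant response element core at −47, and no RUNX1 summit within 5 kb in either list. A match of letters is a description of the sequence, not a bound site.

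RUNX1 peaks lay at nearly all proteasome subunit genes in both genotypes. Where a start was known, the strongest peak of most bound genes lay near it. A gene was called bound when a summit fell inside it or at most 5 kb from either end. By that measure 45 of 47 genes had a RUNX1 peak in WT and 45 in KO, against 50.1% and 52.7% of all protein-coding genes. Among genes with S2P peaks in both lists, 86.9% had a RUNX1 peak in WT and 91.3% in KO, and the proteasome genes were close to those shares. In all, 44 genes were bound in both lists. The share of all genes bound in both lists was 48.7%. Psma8, the testis alpha subunit, had a RUNX1 peak in WT alone (1.34% of all genes), of 15 fragments and without S2P. Psmd6, a subunit of the 19S lid, had one in KO alone (3.99%), of 20 fragments at 35 bp after its start. Psmb5, which encodes the chymotrypsin-like protease site, had none in either list (45.9%). Another protein-coding gene lay within 5 kb of 38 of the 47 genes, so a peak may serve a neighbour: counting a peak for its nearest gene only left 35 genes with RUNX1 in WT and 38 in KO. Keeping only peaks with a fold enrichment of at least 5 left 30 genes with RUNX1 in WT and 37 in KO. The share of all genes was not taken at that threshold.

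The strength of a peak is given as the number of fragments stacked at its summit, recovered from the deposited values. The alpha ring had the highest group median of RUNX1 fragments, 106 in WT and 133 in KO. At Psma6, a structural alpha subunit, the summit held 234 fragments in WT (exact Poisson 95% interval 205 to 266) and 245 in KO (215 to 278). This peak, at chr12:55387385-55387849, lay inside the gene 3420 bp after the first start and overlapped a GATA2 peak of 207 fragments in WT and 231 in KO. Psmd4, a ubiquitin receptor of the 19S cap, came next with 220 fragments in WT and 228 in KO. Psma7 had 178 and 215 fragments at a start shared head to head with Ss18l1, which begins 19 bases upstream on the other strand. Psma2 had 137 and 168 fragments, and Mrpl32 begins on its other strand at −205. Psma3 had 108 and 128, and Psma5 had 104 and 133. The median over the bound genes was 58 fragments in WT and 75 in KO, against 67 and 79 over all bound genes. The alpha ring had a median of 106 fragments over 8 bound genes in WT, and its lowest value was the 15 of Psma8.

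The other groups of subunits had lower medians, and the non-ATPase genes of the 19S cap spanned about as wide a range as the alpha ring. In the 20S beta ring 6 of 7 genes had RUNX1 peaks in each list, and Psmb3 was strongest with 87 fragments in WT and 125 in KO. All 4 genes for the beta subunits of the immunoproteasome and thymoproteasome had one, from 29 fragments at Psmb8 to 58 at Psmb11 in WT. All 6 ATPase genes were bound, and Psmc3 led with 92 and 149 fragments. The non-ATPase genes ranged from 18 fragments at Psmd1, the largest scaffold of the cap, to the 220 of Psmd4 in WT. At Psmd1 the WT peak lay 48738 bp inside the gene, and a peak of 37 fragments 109 bp after the start was the strongest in the KO list. The 19S chaperones Psmd5, Psmd9 and Psmd10 had between 56 and 57 fragments in WT and between 62 and 99 in KO. Psmg1, a chaperone of alpha ring assembly, had 106 and 114 fragments and was the strongest of the 20S chaperones. Psme1 and Psme2, the subunits of the interferon-inducible activator, share 1 strongest RUNX1 peak of 74 fragments in WT and 69 in KO at chr14:55585571-55585982, and Psme3 had 72 and 85.

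**Figure D1:**
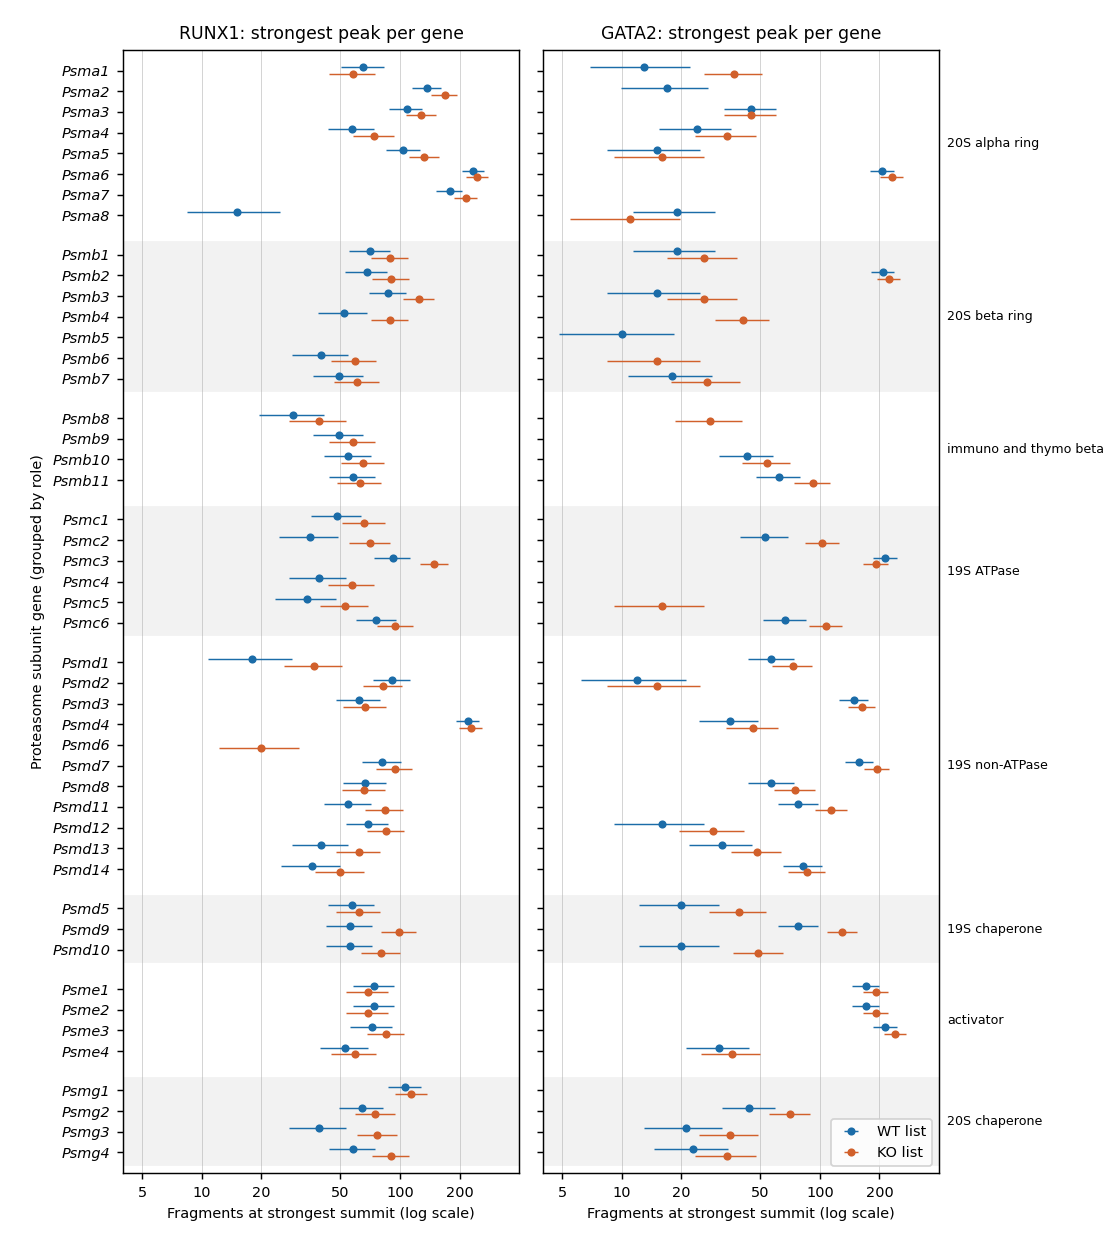
Fragments at the strongest RUNX1 (left) and GATA2 (right) summit within 5 kb of each of the 47 genes, on a log scale, in the WT list (blue) and the KO list (orange), with exact Poisson 95% intervals; a missing point means that no peak was listed. RUNX1 points are missing for Psmb5 in both lists, for Psmd6 in WT and for Psma8 in KO, while GATA2 is missing from both lists at 6 genes.

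The strongest RUNX1 summit of most genes lay close to a start. A RUNX1 summit lay within 1 kb of a start at 34 of 39 genes in WT and 36 of 39 in KO. Over all genes with a promoter in the table these shares were 38.6% and 42.4%, and among genes with S2P in both lists 75.1% and 82.4%. With only peaks of a fold enrichment of at least 5 kept, a threshold chosen after seeing the data, 20 genes in WT and 26 in KO had such a summit. The strongest RUNX1 summit of each bound gene lay at a median of −46 bp in WT and −41 bp in KO, and 27 of 37 in WT and 29 of 38 in KO were within 250 bp of the start, against 48.2% and 50.6% over all genes. Of all RUNX1 summits at these genes, 45.8% in WT and 39.3% in KO lay that close, against 27.2% and 24.7% over all genes. Of the WT summits within 250 bp of a start, 28 lay before it and 5 after it. The KO list had 24 before and 11 after. Over all genes 79.2% of such summits in WT and 74.7% in KO lay before the start.

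GATA2 was distributed otherwise. A GATA2 summit lay within 1 kb of a start at 6 of 39 genes in WT and 10 of 39 in KO, against 15.1% and 17.5% of all genes and 26.3% and 31.2% of genes with S2P. The strongest GATA2 summit of each gene lay at a median absolute distance of 4265 bp from a start in WT, against 6591 bp over all genes. Gene length limits such distances for both factors, because summits were counted inside the gene and up to 5 kb around it. The median length was 11567 bp for the proteasome genes and 17169 bp for all genes, and its part was not tested. Psme3, an activator subunit of the nucleus, was an exception with 213 fragments in WT and 239 in KO at −447 and −451 bp. The others with a WT summit within 1 kb were Psmc2, Psmc6, Psmd8, Psmd9 and Psme1.

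**Figure D2:**
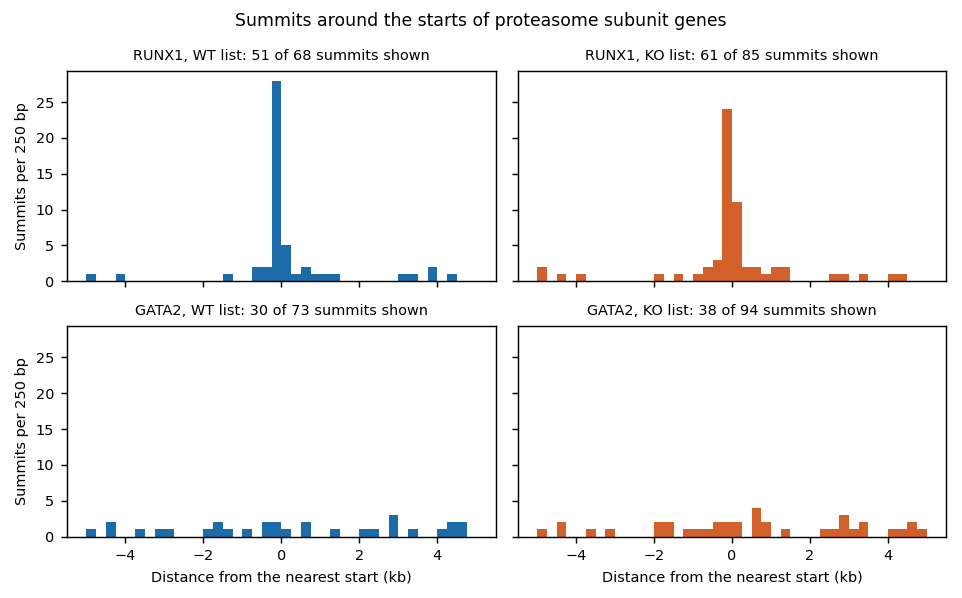
Number of RUNX1 (top) and GATA2 (bottom) summits per 250 bp against the distance from the nearest start, negative values lying before the start, for the genes with a promoter entry, in the WT list (left) and the KO list (right). The RUNX1 lists show 33 (WT) and 35 (KO) summits within 250 bp of a start and the GATA2 lists 3 and 4; summits farther than 5 kb from a start are not shown.

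A GATA2 peak lay within 5 kb of 37 of the 47 genes in WT and 39 in KO. The background was 56.6% and 61% of all genes, and 82.7% and 87.3% of genes with S2P, so the proteasome genes were close to other transcribed genes. Psma7, Psmb9, Psmc1, Psmc4, Psmd6 and Psmg1 had none in either list (36.1% of all genes). Psma2, with 17 fragments, and Psmb5, with 10, had one in WT alone (2.9%). Psmb4 (41 fragments), Psmb8 (28), Psmc5 (16) and Psmb6 (15) had one in KO alone (7.35%). Apart from Psmb4 and Psmb8 these peaks were near the weak end of the lists, where the median summits held 23 fragments in WT and 24 in KO.

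The strongest GATA2 peaks lay inside or within 5 kb of members of several groups. At Psmc3, an ATPase, the GATA2 summit held 214 fragments in WT and 192 in KO, at chr2:91060797-91061220 outside the gene. Psmb2, a beta ring subunit, had 208 and 223 fragments inside the gene at chr4:126682110-126682683, and Psma6 had 207 and 231. The peak shared by Psme1 and Psme2 held 171 and 191 fragments. Psmd7 and Psmd3, of the 19S cap, had 158 and 194, and 148 and 163. Psmd9 led the 19S chaperones with 78 and 130 fragments, Psmb11 the immuno and thymo beta genes with 62 and 92, and Psmg2 the 20S chaperones with 44 and 71. The remaining genes were much lower, and the median over the bound genes was 43 fragments in WT and 48 in KO, against 44 and 48 over all bound genes. The Poisson intervals of WT and KO overlapped at all of these except Psmd9, which lies on chromosome 5.

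The overlap of RUNX1 with GATA2 was given as a share of each list. Of 83 WT RUNX1 peaks at proteasome genes, 26.5% (exact Clopper-Pearson 95% interval 17.4 to 37.3) overlapped a GATA2 peak, against 48.4% of the RUNX1 peaks at all genes. In KO the share was 33.7% of 104 peaks, against 47.6%. Counted from GATA2, 23.7% of 93 WT peaks overlapped a RUNX1 peak, and the share at all genes was 23.7% as well. Strong peaks of both factors coincided at Psma6, at Psme3 and at the peak between Psme1 and Psme2. Psma7, Psma2 and Psmd4 carried strong RUNX1 peaks at the start that did not overlap GATA2.

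The promoters were also read for short motifs. A RUNX1 summit lay within 32 of the 42 member promoters in WT, or 76.2%, against 27.9% of 21263 promoters of all genes. RUNX letters stood in 23.8% of member promoters and in 21.6% of all promoters. Among promoters with a WT RUNX1 summit they stood in 6 of 32 member promoters (18.8%) and in 22.7% of all such promoters. GATA letters (AGATA or TGATA followed by A or G) were in 11.9% of member promoters and 26% of all. They were in 12.5% of the member promoters with a WT RUNX1 summit and in 16.6% of all such promoters. ETS letters were in 35.7% against 11.6%, and nuclear respiratory factor letters in 16.7% against 6.38%. Among promoters with a WT RUNX1 summit the ETS shares were 37.5% and 25.6%, and the nuclear respiratory factor shares 21.9% and 13.9%. The antioxidant response element core, read by the factor Nfe2l1 that is known to raise proteasome genes when the particle is inhibited, was in 14.3% against 13%, and CCAAT in 33.3% against 38.2%.

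Peaks at proteasome genes were largely the same in the WT and KO lists. Of the WT RUNX1 peaks 90.4% (81.9 to 95.7) overlapped a KO peak, against 88.2% at all genes. Of the WT GATA2 peaks 89.2% (81.1 to 94.7) did so, against 83.2%. The KO lists were longer, and 71.2% of their RUNX1 peaks and 73.3% of their GATA2 peaks at these genes overlapped a WT peak, against 69.8% and 70% at all genes. Unshared WT peaks were weak, with a median of 18 RUNX1 fragments against 55 for shared ones, and the medians at all genes were 19 and 45.

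Where 1 WT peak overlapped 1 KO peak, the fragments were compared after scaling each list by its lowest background. The 95% intervals of the medians were read from the ranked pairs, which are not replicates. RUNX1 summits were higher in KO at 55 of 69 pairs, where 72.9% of the pairs at all genes were higher, with a median log2 difference of 0.25 (0.19 to 0.38), against 0.20 over the pairs at all genes. GATA2 summits were higher in KO at 59 of 77 pairs, where 62.5% at all genes were higher, with a median of 0.25 (0.15 to 0.36), against 0.12. The deposited fold enrichment, which sets the summit against its own local background, gave smaller medians of 0.15 for RUNX1 and 0.13 for GATA2. The medians over all genes on that measure were 0.15 and 0.11. Local background moved with the fragments: at the proteasome pairs its scaled median log2 difference was 0.19 for RUNX1, against 0.09 at all genes. RUNX1 summits within 250 bp of a start stood on a median background of 9.95 fragments in WT and 11.5 in KO, where the lists as a whole had 5.68 and 5.41. The RUNX1 fold enrichment was higher in KO at 42 of the 69 pairs, and at 11328 of 18647 pairs at all genes. Psma1 and Psma4 were among the pairs where it was lower. At Psma1 the summit held 65 fragments in WT and 58 in KO and the fold enrichment was 7.49 and 4.20. At Psma4 the fragments were 57 and 74 and the fold enrichment 6.09 and 5.06. The part of the background in the KO differences was not tested.

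A difference past 1.5-fold was called at 14 RUNX1 pairs higher in KO (14.8% of pairs at all genes) and at 0 lower (3.67%). The genes were Psma5, Psma7, Psmb1, Psmb4, Psmc2, Psmc3, Psmc5, Psmd9, Psmd11, Psmd13, Psmg3 and Psmg4. The highest log2 value, 1.14, belonged to a distal peak of Psma5 with 25 and 56 fragments. The fold enrichment was higher in KO at 12 of the 14, but it contains the fragments by which these pairs were chosen. Both measures were past 1.5-fold at 4 of the 69 RUNX1 pairs, against 7.11% of pairs at all genes. At Psmd11, a scaffold of the 19S lid, the start had 55 fragments in WT and 84 in KO, yet its fold enrichment was 9.37 and 5.45. Psmc3 had 92 and 149 fragments, with separate Poisson intervals of 74.2 to 113 and 126 to 175 and fold enrichments of 10.5 and 13.7.

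For GATA2, 18 pairs were past 1.5-fold higher in KO (14.2%) and 1 was lower (5.6%). The genes with higher summits were Psma1, Psma3, Psmb1, Psmb2, Psmb3, Psmb7, Psmc2, Psmc6, Psmd5, Psmd9, Psmd10, Psmd12, Psmd14, Psme4, Psmg2 and Psmg3. Most were weak in WT, such as the peak inside Psma1 with 13 and 37 fragments and that of Psmd10 with 20 and 49. The fold enrichment, which contains the same fragments, was higher at 16 of the 18. Both measures were past 1.5-fold at 8 of the 77 GATA2 pairs, against 8.34% of pairs at all genes. The lower summit lay inside Psmd14, the deubiquitinase of the 19S lid, with 25 fragments in WT and 16 in KO and a log2 difference of −0.73. A second summit of Psmd14 had 22 and 36.

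Chromosome 5 stood apart over the whole genome. On chromosome 5 the median log2 difference of all shared summits was 0.56 for RUNX1 and 0.46 for GATA2. On the other chromosomes it ran from 0.13 to 0.19 for RUNX1 and from 0.07 to 0.12 for GATA2. The RUNX1 range leaves out chromosome Y, where only 17 pairs were found, with a median of 0.09. The proteasome genes on chromosome 5 are Psmc2, Psmd9 and Psmg3. Their RUNX1 pairs, with 35 and 71, 56 and 99, and 39 and 77 fragments, had log2 differences from 0.80 to 1.00, and their 5 GATA2 pairs had a median of 0.63. RUNX1 fold enrichment in WT and KO was 6.03 and 6.56 at Psmc2, 3.65 and 3.72 at Psmg3, and 10.6 and 7.12 at Psmd9. At the GATA2 pairs past 1.5-fold it was 10.4 and 15.4 at Psmc2, 5.41 and 5.68 at Psmd9, and 4.14 and 3.4 at Psmg3. Without these genes the medians were 0.23 for RUNX1 and 0.24 for GATA2, and 11 of 66 and 15 of 72 pairs were past 1.5-fold higher, against 12.4% and 12.3% of pairs off chromosome 5. Whether the KO cells carried more copies of chromosome 5 was not tested.

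**Figure D3:**
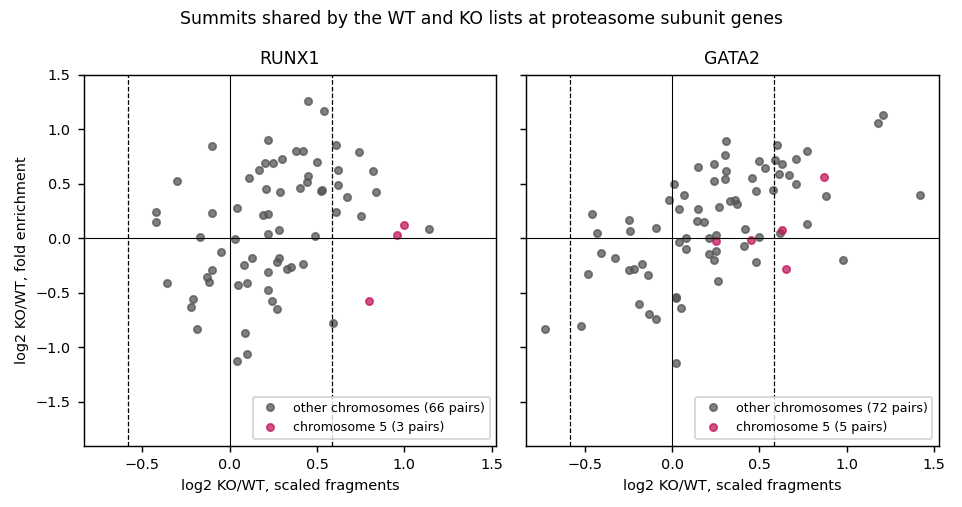
Log2 of KO over WT for each pair of overlapping summits at the proteasome subunit genes, with scaled fragments on the horizontal axis and deposited fold enrichment on the vertical axis, for RUNX1 (left) and GATA2 (right); pink points lie on chromosome 5 and dashed lines mark 1.5-fold. Of the pairs with more fragments in KO, 19 for RUNX1 and 17 for GATA2 had a lower fold enrichment.

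S2P covered large parts of most proteasome genes. Coverage is the percentage of a gene lying under S2P peaks, and 50% or more was called covered. In WT 28 of 47 genes were covered and in KO 26, against 16.7% and 17.1% of all genes of at least 2 kb and 34% and 34.9% of those with S2P in both lists. The median coverage was 61.4% in WT and 58.2% in KO, where genes with S2P in both lists had 29.6% and 32.2%. The median gene length was 11567 bp for the proteasome genes and 21997 bp for genes with S2P in both lists. The part of length in the coverage was not tested. The 20S alpha and beta rings had WT medians of 62% and 68.7%, the ATPases 68.4% and the non-ATPases 69%. The highest values in WT were those of Psmd7 (92.6%, and 95.5% in KO), Psma7 (89.9% and 91.6%) and Psmd6 (87.9% and 83.6%). In KO, Psmd7 was followed by Psme3 (94.2%) and Psme1 (93.3%). Psmd6 reached its coverage with no RUNX1 peak in WT and no GATA2 peak in either list. The lists give no strand, so polymerase on overlapping or adjoining genes counts too.

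An S2P peak lay in 41 of the 47 genes in each list, against 45.8% of all genes in WT and 46.1% in KO. The genes without S2P were mostly those of specialised particles. Psma8 of the testis, Psmb11 of the thymus, the immunoproteasome subunits Psmb8 and Psmb9, the chaperone Psmd10 and the activator subunit Psme2 were at 0 in both lists. The other immunoproteasome gene, Psmb10, had 23.6% in WT and 9.79% in KO. Psme2 was at 0 beside Psme1 at 83.5% and 93.3%, although both have the same strongest GATA2 and RUNX1 peaks. Psmb9 and Psmd10 had RUNX1 summits at their starts of 49 and 58, and 56 and 80 fragments, at divergent starts shared with Tap1 and Atg4a.

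**Figure D4:**
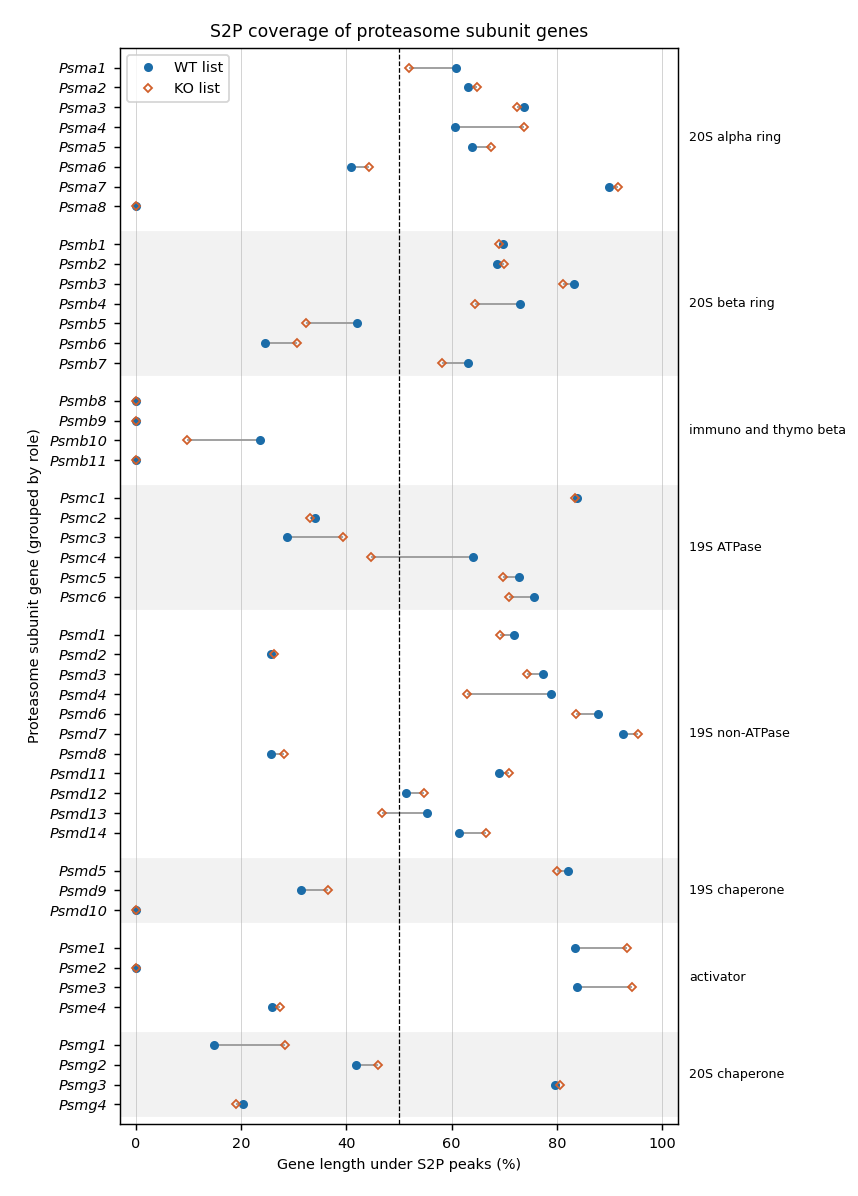
Percentage of each gene under S2P peaks in the WT list (filled circles) and the KO list (open diamonds), with genes grouped by role and a dashed line at 50%. The core and cap genes lie mostly to the right of the line, and 6 genes are at 0 in both lists.

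Coverage differed little between the genotypes. It was higher in KO at 21 of the 41 genes with S2P and lower at 20, where 61.2% of genes with S2P peaks in both lists were higher. The median difference over the 47 genes was 0.00 points, which is the value of the 6 genes at 0 in both lists. Over all genes with S2P in both lists the median difference was 0.75 points. A difference of at least 10 points was called at 4 genes higher in KO (2.98% of all genes, and 5.92% of those with S2P) and at 3 lower (2.02% and 3.91%). Psma4 went from 60.7% to 73.8%, Psmg1 from 14.8% to 28.3%, Psmc3 from 28.7% to 39.3% and Psme3 from 83.9% to 94.2%. The lower ones were Psmc4, an ATPase, from 64.1% to 44.7%, Psmd4 from 78.9% to 63%, and Psmb10. When the strongest KO peaks were kept to the genome length that the WT peaks cover, Psmc3 differed by 0.4 points and Psmg1 by 5.3, while Psmc4 differed by −22.9 points and Psmd4 by −17.9. With only S2P peaks of a −log10 q of at least 5, Psme3 differed by 2.2 points, Psmg1 by 6.8 and Psmc3 by 0.4, under the 10 points called. Psma4, Psmc4, Psmd4 and Psmb10 were past it under both settings. With 1 list per genotype, none of these differences has a replicate check.

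S2P coverage was higher toward the 3′ end of most of these genes. Over the 39 genes with a known strand, each cut into 3 equal parts, the 5′ part had a WT median coverage of 28.3%, the middle part 60.4% and the 3′ part 76.7%, and the 2 kb after the end had 100%. The KO list gave 25.1%, 58.9%, 76.3% and 100%. The 3′ part was covered more than the 5′ part at 32 of 39 genes in WT and 30 in KO, and less at 2 and 3. The shares were 39.2% in WT and 41% in KO over all genes, and 76.7% and 79.7% over genes with S2P in both lists, of which 34 are proteasome genes. The exceptions in WT were Psmg1 (20.7% in the 5′ part and 6.28% in the 3′ part) and Psmd14 (78.9% and 59.1%). Genes with S2P in both lists had WT medians of 13.6%, 23.5% and 49.6%.

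**Figure D5:**
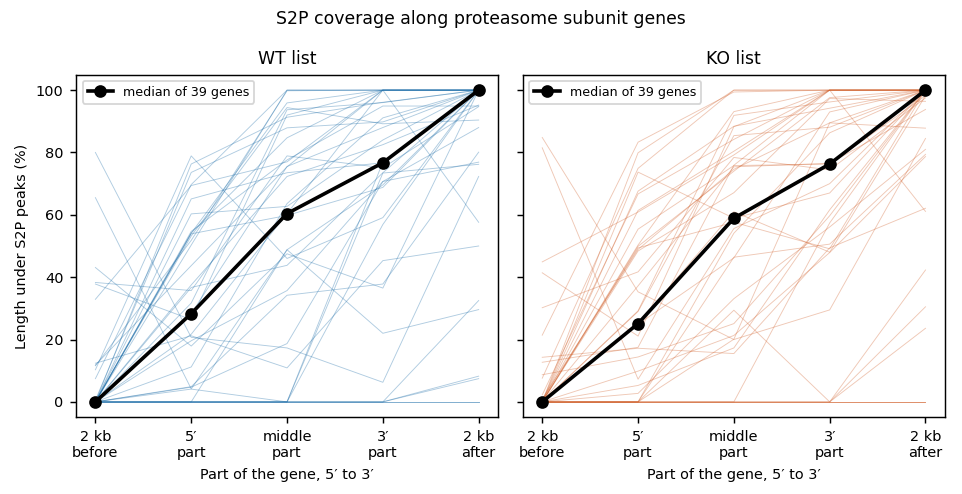
Percentage under S2P peaks in the 2 kb before the gene, in each of 3 equal parts of the gene and in the 2 kb after it, for 39 genes with a known strand (thin lines) and their median (black), in the WT list (left) and the KO list (right). Both medians go from 0 before the gene to 100% after it.

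Other machines of the cell were read in the same way. Both RUNX1 lists had a peak at 74 of 80 cytosolic ribosomal protein genes and at 70 of 78 mitochondrial ribosomal protein genes. The same held at all 8 genes of the chaperonin CCT, a folding ring, against 48.7% of all genes. Of genes with S2P peaks in both lists, 86.9% had a RUNX1 peak in WT and 91.3% in KO. S2P covered 64 of 68 of the cytosolic ribosomal genes in both lists, 27 of 73 of the mitochondrial ones, 7 of 8 chaperonin genes and 26 of 47 proteasome subunit genes, against 15.8% of all genes. The 29 partners and regulators of the proteasome outside the rule all had an S2P peak in both lists. A RUNX1 peak lay at 28 of the 29 in both lists (48.7% of all genes). S2P covered 21 of the 29 in both lists (15.8%). A GATA2 peak lay at 27 partners in WT and 27 in KO. The GATA2 shares were 56.6% and 61% of all genes, and 82.7% and 87.3% of genes with S2P. The partners include Vcp, the segregase that extracts ubiquitylated proteins, with 216 and 233 RUNX1 fragments, and Nfe2l1, with 144 and 173. Pomp, the core maturation chaperone, lies on chromosome 5 and had 57 and 113. The S2P coverage of the partners was at least 10 points higher in KO at 0 genes (2.98% of all genes) and lower at 2 (2.02%).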

How the data were processed

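GATA2, RUNX1 and S2P were profiled by ChIP-seq in 8 ChIP samples, with 6 input samples (14 in all). Per the labels, chromatin averaged 500 bp, was amplified by 18 cycles of PCR and was size-selected at 150 to 300 bp. The submitters' processing notes name Bowtie2 2.2.1, MACS2 2.1.0 and the mouse build GRCm38 (mm10); the settings are not given in the sources used here. The authors deposited narrowPeak lists with a peak score, a fold enrichment ratio, −log10 p and −log10 q, and a summit offset. How the S2P replicates were combined is not given in the sources used here.

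The deposited fold enrichment and −log10 p together give back the fragments at each summit and its local background under a Poisson model. They were whole at 100% of summits in each list at a tolerance of 0.005, and the KO S2P list needed a ChIP scale of 0.961. The deepest summits held 282 to 298 fragments, a ceiling set by the caller. The recovery was tested on simulated data. KO and WT fragments were divided by the lowest background of each list, 1.48 and 1.57 for GATA2 and 1.37 and 1.39 for RUNX1 in WT and KO. Peaks overlapping by 1 bp were shared, 1.5-fold was called, and S2P differences of 10 points were called. Gene positions and promoters came from RefSeq on GRCm38, and 29 of 30 listed partners matched. Reads shared with pseudogenes such as Psmb6-ps were not tested. The members, gene lists, thresholds and the rule for named genes (the strongest members of each role group, those bound in 1 genotype or neither, those without S2P, those past a threshold, and those on chromosome 5) were chosen with earlier results of these data known. Analyses used Python 3.11.15, numpy 2.4.6, pandas 2.3.3 and scipy 1.17.1.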

Additional observations from a re-analysis of the deposited data

How the results depend on the processing

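No paired analysis was possible because each comparison had 1 list per genotype, and no replicate could be left out for the same reason. Of 77 alternatives for 13 results, 67 gave counts within 1.5 times of the reported one or values within its interval, and 10 moved. A reversal could be scored only for the median log2 differences of KO over WT, and 0 were reversed. Alternatives that drop or add only a few genes could hardly move a count past 1.5 times. A reciprocal overlap of 50% lowered the shared WT peaks to 80.6% for GATA2 and 75.9% for RUNX1, and WT GATA2 peaks with a −log10 q of at least 5 were shared at 94.7%. Setting the median of all shared summits to 0 brought the median KO over WT log2 difference to 0.14 for GATA2 and 0.06 for RUNX1. The fold enrichment, an alternative chosen after seeing the data, gave 0.13 and 0.15. Keeping peaks with a fold enrichment of at least 5, also chosen after seeing the data, left 20 genes with a WT RUNX1 summit within 1 kb of a start, in place of 34. At a coverage of 75% or more, 12 genes in WT and 9 in KO were covered by S2P. A gene symbol rule that admits Psmc3ip, Psme2b and Psme3ip1 changed no count by over 1.5 times. Summit fragments near the ceiling understate differences, and peaks under the q limit of 0.05 are not listed. No interval covers variation between replicates. Amplified reads carry no molecular identifier, and whether repeats of a molecule remained in the fragments was not tested.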
